A study of Mus musculus with 20 samples.

Results

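The gene sets described here are those of the extracellular matrix, its collagens and the integrin receptors that bind it. Members were selected by name from the authors' gene set enrichment reports: names beginning with NABA, or holding collagen, extracellular matrix, ECM, integrin, laminin or focal adhesion as a term, with names holding TGFB or PLATELET removed. Of the 3886 sets listed in at least 1 comparison, 39 were members, and 0 names had to be removed for TGFB or PLATELET. Another set, OSWALD_HEMATOPOIETIC_STEM_CELL_IN_COLLAGEN_GEL_DN, matched by name but lists genes that went down in its source study, and it was kept apart. By role, 8 members came from the matrisome inventory, 7 were named for collagen, 1 for laminin, 6 for matrix organisation and receptors, 16 for integrins and 1 for focal adhesion. REACTOME_NON_INTEGRIN_MEMBRANE_ECM_INTERACTIONS falls among the integrin names because of its wording, although it covers other matrix receptors. Likewise, the 7 collagen sets counted below include OSWALD_HEMATOPOIETIC_STEM_CELL_IN_COLLAGEN_GEL_UP, which is not a set of collagen genes.

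The libraries were RNA-seq of mouse material of strain C57BL/6. Myeloid cells were prepared from adult marrow and spleen by removing CD3e-positive cells, so cells other than T cells could stay in the preparation, and marker genes that would check the myeloid label were not analysed here. Bone marrow had 3 libraries from animals bearing B16F10 tumours, 2 from animals bearing YUMM3.3 tumours and 3 from healthy animals, and spleen had 2 of each. The melanoma lines were grown in plates, with 3 libraries of YUMM3.3 and 3 of B16F10. B16F10 is a metastatic subline of the spontaneous mouse melanoma B16, and YUMM3.3 comes from a genetically engineered mouse melanoma. The labels do not state how the tumours were placed or which libraries, of marrow or of spleen, share an animal.

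The extracellular matrix is the network of collagens, glycoproteins and proteoglycans that cells secrete around themselves. The matrisome inventory divides it into this core and the associated proteins that regulate it, bind to it or signal through it. Collagens are made as chains that join in triple helices, are modified and crosslinked, and are later cut by proteases. Integrins are paired receptors that attach cells to collagen, laminin and fibronectin and signal through focal adhesions. In marrow and spleen they hold progenitor and myeloid cells in their niches, and the beta-2 integrins are restricted to leukocytes.

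Each set had 1 value per comparison: a normalised enrichment score (NES), which is an enrichment score scaled so that sets of different size can be compared. A positive NES here means that the genes of the set lay toward the first-named group in the ranked gene list, and a set counted as changed at a deposited false discovery rate q (FDR q) below 0.05. No value per library and no gene within a set was analysed, so no spread between replicates could be given, and the sequencing depth is unknown here. Fewer cells of a type and less RNA per cell cannot be told apart in such samples. Directions rest on the names of the reports, and the files give no independent check of a reversal of a whole tissue or of the lines. The sets overlap in genes. NABA_COLLAGENS, NABA_PROTEOGLYCANS and NABA_ECM_GLYCOPROTEINS added up to 235 genes in the myeloid reports, exactly the size of NABA_CORE_MATRISOME, so counts of sets are not counts of separate findings. NABA_COLLAGENS and REACTOME_COLLAGEN_CHAIN_TRIMERIZATION had the same size, enrichment score to 6 decimals, peak position and leading edge in all 7 comparisons, as a single gene list would, and they count as 1 finding wherever both are named.

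Across the study, 29 of the 39 members were higher in the YUMM3.3 line than in the B16F10 line (11.8% of all listed sets), and in myeloid cells fewer changed. In marrow, 4 members were lower with B16F10 tumours than in healthy animals (5.00% of all listed sets), led by KEGG_ECM_RECEPTOR_INTERACTION. Counting the identical collagen sets once made this 3 of 38, near that share. With YUMM3.3 tumours 5 were higher in marrow, led by NABA_SECRETED_FACTORS, which was near the 9.68% of all listed sets. In spleen, 7 members were lower with YUMM3.3 tumours (5.31% of all listed sets), led by PID_INTEGRIN_A4B1_PATHWAY. Of the 39 members, 18 changed in at least 1 of the myeloid comparisons and 21 in none of them, while 49.1% of all 3883 listed sets changed in at least 1, so the members changed about as often as other sets there. Both comparisons with healthy animals in a tissue used the same healthy libraries, and the comparison of the tumours used the tumour libraries again, so the comparisons within a tissue are not independent.

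**Figure D1:**
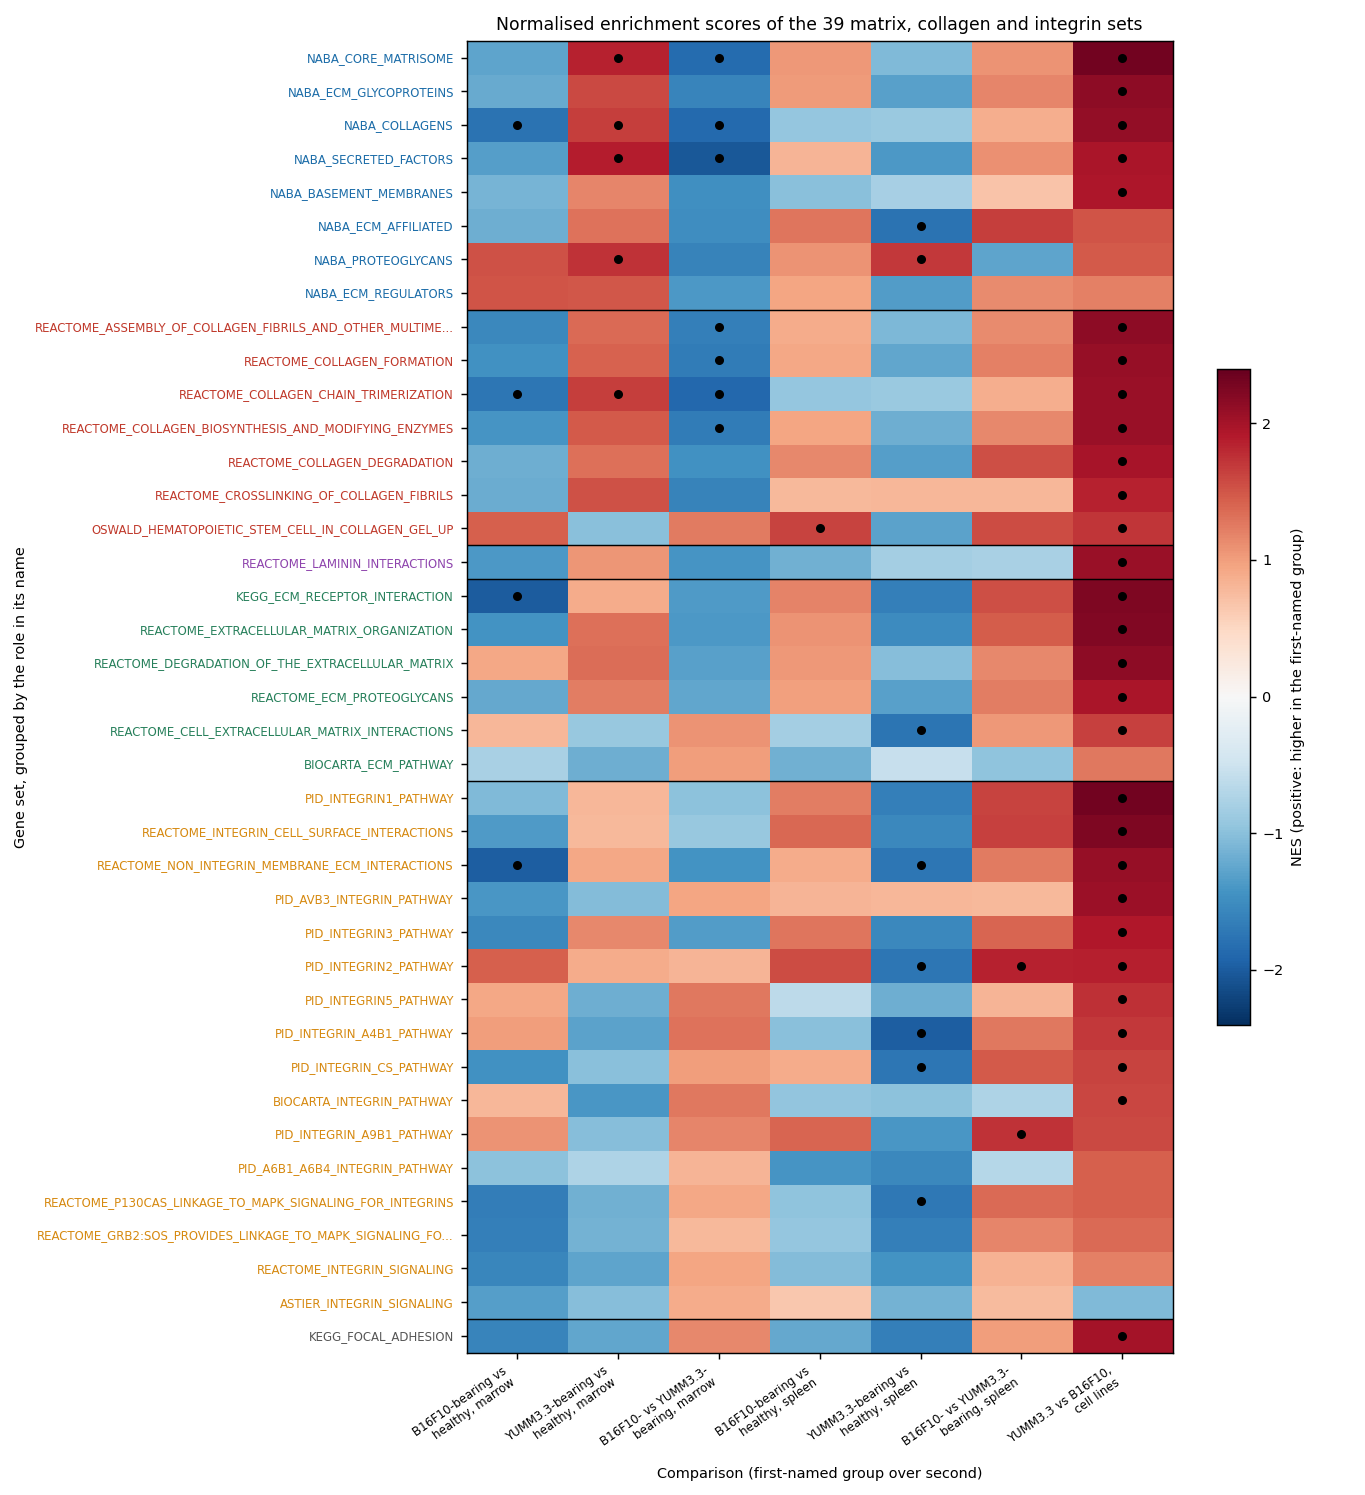
Heat map of NES for the 39 members (one row each, grouped and coloured by the role in the name) in the comparisons (columns, first-named group over second). Red is higher and blue lower in the first-named group, and black dots mark FDR q below 0.05, which 29 members had between the cell lines.

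**Figure D2:**
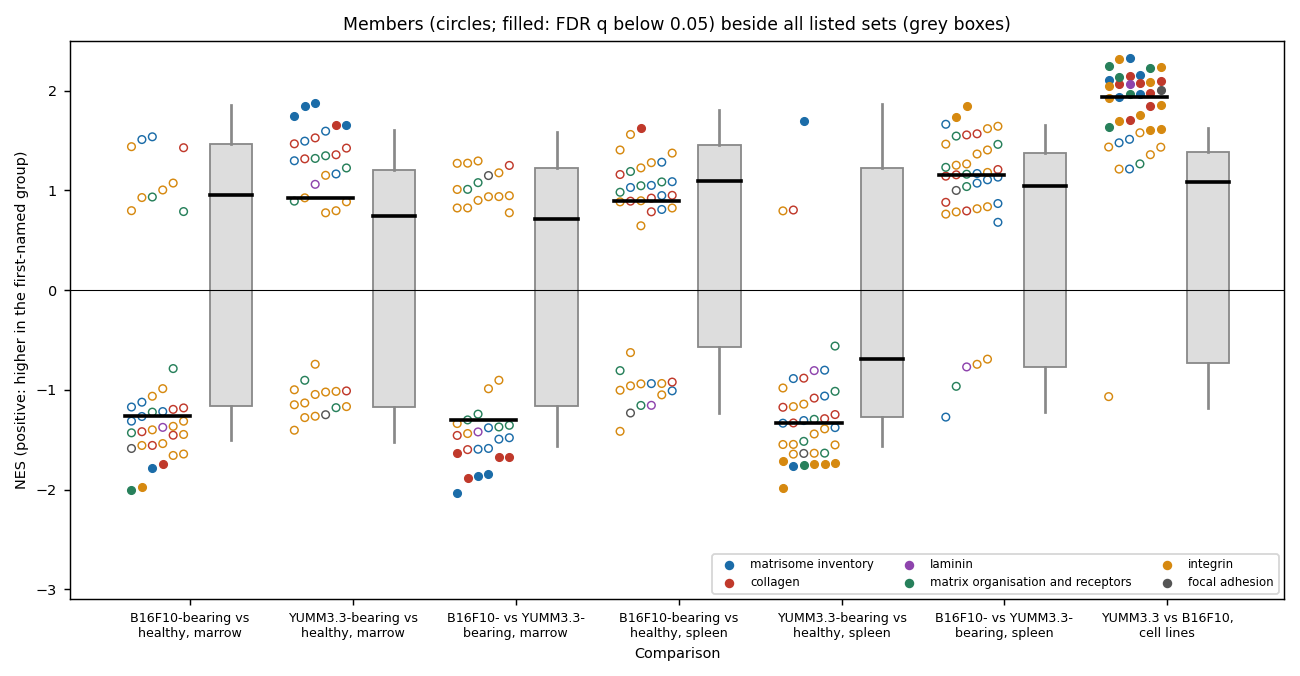
NES (vertical axis) of the members (circles, filled at FDR q below 0.05, coloured by role) for each comparison, beside all listed sets (grey box from the 25th to the 75th percentile, whiskers from the 10th to the 90th, thick lines at medians). Because an NES is rarely near 0, the values form a band above 0 and a band below it, and a median can jump from one to the other. The median of the members was 1.94 between the lines, against 1.08 for all listed sets.

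In bone marrow of B16F10-bearing animals, 4 matrix receptor and collagen sets were lower than in healthy marrow. None of the 39 members was higher and 4 were lower, where 20.1% of all 3883 listed sets were higher and 5.00% lower. Counting the identical collagen sets once, 3 of 38 were lower, near the background share. In the authors' deposited table, KEGG_ECM_RECEPTOR_INTERACTION, a set of 79 genes for matrix ligands and their receptors, had an NES value of -2.00 (FDR q = 0.00348). REACTOME_NON_INTEGRIN_MEMBRANE_ECM_INTERACTIONS, which covers receptors such as syndecans, followed in the authors' deposited table with -1.98 (FDR q = 0.00464). NABA_COLLAGENS, the inventory of collagen chains, had an NES value of -1.78 in the authors' deposited table (FDR q = 0.0291). REACTOME_COLLAGEN_CHAIN_TRIMERIZATION, the step that joins chains into a triple helix, had -1.74 (FDR q = 0.0375, authors' deposited table). These are the identical collagen sets of 39 genes described above.

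The remaining members in B16F10-bearing marrow did not pass the threshold, and 29 of the 39 lay on the lower side in all. The median NES was -1.27 for the members and 0.96 for all listed sets. KEGG_FOCAL_ADHESION, the set for the plaques where integrins meet the actin cytoskeleton, had an NES value of -1.59 in the authors' deposited table, and REACTOME_LAMININ_INTERACTIONS, for the laminins of basement membranes, had -1.38. On the other side, the authors' deposited table gave NABA_PROTEOGLYCANS an NES value of 1.54 and NABA_ECM_REGULATORS, the proteases and inhibitors that remodel matrix, 1.51. PID_INTEGRIN2_PATHWAY, for the leukocyte beta-2 integrins, was also on the higher side, with 1.44 in the authors' deposited table. The OSWALD set of progenitors in collagen gel stood at 1.43 in the authors' deposited table, the highest of the collagen names, and REACTOME_DEGRADATION_OF_THE_EXTRACELLULAR_MATRIX at 0.93. Of the 16 integrin sets, 5 lay on the higher side and 11 on the lower side, and only the non-integrin receptor set named above passed the threshold.

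In marrow from animals with YUMM3.3 tumours, the inventory sets of the core matrisome, collagens, proteoglycans and secreted factors were higher than in healthy marrow. Here 5 members were higher and 0 lower, beside 9.68% of all listed sets higher and 6.52% lower, so the higher members (5 of 39, or 4 of 38 with the identical collagen sets counted once) were near the background share. NABA_SECRETED_FACTORS, the inventory of growth factors and cytokines that can bind matrix, had the largest NES of the members in the authors' deposited table, 1.88 (FDR q = 0.00541). NABA_CORE_MATRISOME followed in the authors' deposited table with 1.84 (FDR q = 0.00784), and NABA_PROTEOGLYCANS with 1.74 (FDR q = 0.0204). The authors' deposited table gave NABA_COLLAGENS 1.66 (FDR q = 0.0395) and REACTOME_COLLAGEN_CHAIN_TRIMERIZATION 1.65 (FDR q = 0.0399). Matrix and integrin sets lay mostly on different sides here, a difference that was not tested. All 8 inventory sets were listed on the higher side, with a median NES value of 1.62, as were 6 of the 7 collagen sets, with a median of 1.42. Of the 16 integrin sets, 5 lay on the higher side and 11 on the lower, with a median of -1.02 and 0 past the threshold in either direction.

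Among the other collagen steps in YUMM3.3-bearing marrow, the authors' deposited table listed REACTOME_CROSSLINKING_OF_COLLAGEN_FIBRILS at 1.53, REACTOME_COLLAGEN_BIOSYNTHESIS_AND_MODIFYING_ENZYMES at 1.47 and REACTOME_COLLAGEN_DEGRADATION at 1.32, all short of the threshold. The lowest member was BIOCARTA_INTEGRIN_PATHWAY, a set of signalling proteins downstream of integrins, with an NES value of -1.40 in the authors' deposited table (FDR q above the threshold). KEGG_FOCAL_ADHESION had an NES value of -1.25 in the authors' deposited table. At the ends of the other roles, the authors' deposited table had NABA_BASEMENT_MEMBRANES, the sheets under epithelium and vessels, at 1.16 and the OSWALD progenitor set at -1.01. PID_INTEGRIN3_PATHWAY led the integrin sets with 1.15 in the authors' deposited table, and REACTOME_LAMININ_INTERACTIONS had 1.06. The matrix organisation sets ran from -1.18 for BIOCARTA_ECM_PATHWAY to 1.35 for REACTOME_DEGRADATION_OF_THE_EXTRACELLULAR_MATRIX in the authors' deposited table. None of these passed the threshold. With the inventory sets left out, 1 of 31 members was higher, and the median NES was 0.78 in place of 0.93.

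Between the tumours in bone marrow, 7 collagen, core matrisome and secreted factor sets were lower in B16F10-bearing than in YUMM3.3-bearing animals. The comparison had 0 members higher and 7 lower (6 of 38 with the identical sets counted once), beside 8.09% of all listed sets higher and 8.40% lower. In the authors' deposited table, NABA_SECRETED_FACTORS had an NES value of -2.04 (FDR q = 0.00136), which placed it 99th from the lower end of the 3883 sets. REACTOME_COLLAGEN_CHAIN_TRIMERIZATION had -1.88 (FDR q = 0.00722), NABA_COLLAGENS -1.87 (FDR q = 0.00861) and NABA_CORE_MATRISOME -1.84 (FDR q = 0.0105) in the authors' deposited table. The authors' deposited table also placed REACTOME_COLLAGEN_FORMATION at -1.67 (FDR q = 0.0394), REACTOME_COLLAGEN_BIOSYNTHESIS_AND_MODIFYING_ENZYMES at -1.67 (FDR q = 0.0393) and REACTOME_ASSEMBLY_OF_COLLAGEN_FIBRILS_AND_OTHER_MULTIMERIC_STRUCTURES at -1.63 (FDR q = 0.0491). So 4 of the 7 collagen sets and 3 of the 8 inventory sets were lower, and all 8 inventory sets were listed on the lower side, with a median NES value of -1.59. The 16 integrin sets had a median NES value of 0.92, with 12 listed on the higher side, 4 on the lower and 0 past the threshold. They ran from -1.44 for REACTOME_NON_INTEGRIN_MEMBRANE_ECM_INTERACTIONS to 1.29 for PID_INTEGRIN_A4B1_PATHWAY in the authors' deposited table. Short of the threshold as well, the authors' deposited table put REACTOME_LAMININ_INTERACTIONS at -1.42, REACTOME_EXTRACELLULAR_MATRIX_ORGANIZATION at -1.37 and NABA_ECM_REGULATORS at -1.38. On the higher side it put the OSWALD progenitor set at 1.25, KEGG_FOCAL_ADHESION at 1.15 and REACTOME_CELL_EXTRACELLULAR_MATRIX_INTERACTIONS at 1.08. Without the inventory sets, 4 members were lower and the median NES value of the members moved to 0.78, against -1.30 with them.

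In spleen of B16F10-bearing animals, 1 member changed. OSWALD_HEMATOPOIETIC_STEM_CELL_IN_COLLAGEN_GEL_UP, genes raised in human blood stem and progenitor cells cultured in a collagen gel, was higher than in healthy spleen, with an NES value of 1.63 in the authors' deposited table (FDR q = 0.0472). It lists a response of blood progenitors and is not a set of collagen genes. The share of all listed sets was 16.6% on the higher side and 1.60% on the lower, against 1 and 0 of the 39 members. Their median NES was 0.89, beside 1.09 for all listed sets. PID_INTEGRIN2_PATHWAY had an NES value of 1.56 and PID_INTEGRIN_A9B1_PATHWAY 1.40 in the authors' deposited table, and neither passed the threshold. The lowest value, -1.41 in the authors' deposited table, belonged to PID_A6B1_A6B4_INTEGRIN_PATHWAY, for the laminin-binding integrins. The inventory ran from -1.01 for NABA_BASEMENT_MEMBRANES to 1.28 for NABA_ECM_AFFILIATED in the authors' deposited table. The matrix organisation sets ran from -1.16 for BIOCARTA_ECM_PATHWAY to 1.19 for KEGG_ECM_RECEPTOR_INTERACTION in the authors' deposited table. REACTOME_COLLAGEN_CHAIN_TRIMERIZATION had -0.92, REACTOME_LAMININ_INTERACTIONS -1.15 and KEGG_FOCAL_ADHESION -1.23 in the authors' deposited table. None of these values passed the threshold.

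In spleen of YUMM3.3-bearing animals, 5 of the 16 sets with integrin in the name, the non-integrin receptor set among them, and 2 other matrix sets were lower than in healthy spleen, and the proteoglycan inventory was higher. With 7 members lower and 1 higher, the background was 5.31% of all listed sets lower and 15.6% higher. The lowest was PID_INTEGRIN_A4B1_PATHWAY, for the leukocyte receptor of fibronectin and of a vascular adhesion molecule, with an NES value of -1.99 in the authors' deposited table (FDR q = 0.00780). NABA_ECM_AFFILIATED, the inventory of proteins found with matrix such as lectins and annexins, had -1.76 in the authors' deposited table (FDR q = 0.0369). REACTOME_CELL_EXTRACELLULAR_MATRIX_INTERACTIONS, a small set of adhesion and linker proteins, also had -1.76 in the authors' deposited table (FDR q = 0.0378). Both PID_INTEGRIN2_PATHWAY (FDR q = 0.0404) and REACTOME_NON_INTEGRIN_MEMBRANE_ECM_INTERACTIONS (FDR q = 0.0408) had an NES value of -1.74 in the authors' deposited table. PID_INTEGRIN_CS_PATHWAY, for integrin pairs at the cell surface, had -1.73 (FDR q = 0.0420), and REACTOME_P130CAS_LINKAGE_TO_MAPK_SIGNALING_FOR_INTEGRINS, for an adaptor that passes integrin signals on, had -1.72 (FDR q = 0.0446), both in the authors' deposited table.

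In all, 36 of the 39 members lay on the lower side in YUMM3.3-bearing spleen, including 15 of the 16 integrin sets. Their median NES was -1.33, beside -0.69 for all listed sets, and that of the integrin sets was -1.55. NABA_PROTEOGLYCANS was the only member higher past the threshold, with an NES value of 1.70 in the authors' deposited table (FDR q = 0.0175). The other members on the higher side were REACTOME_CROSSLINKING_OF_COLLAGEN_FIBRILS and PID_AVB3_INTEGRIN_PATHWAY, at 0.80 and 0.79 in the authors' deposited table. None of the 7 collagen sets changed, and their median NES was -1.17, with the lowest value at -1.33 for REACTOME_COLLAGEN_DEGRADATION in the authors' deposited table. KEGG_FOCAL_ADHESION had -1.64, REACTOME_LAMININ_INTERACTIONS -0.81 and BIOCARTA_ECM_PATHWAY -0.56 in the authors' deposited table, and none of the 3 passed the threshold.

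Comparing the tumours in spleen, 2 integrin sets were higher and 0 members lower in B16F10-bearing than in YUMM3.3-bearing animals, beside 9.63% and 1.47% of all listed sets. PID_INTEGRIN2_PATHWAY had an NES value of 1.85 (FDR q = 0.0134), and PID_INTEGRIN_A9B1_PATHWAY, for a receptor of tenascin and osteopontin, 1.73 (FDR q = 0.0326) in the authors' deposited table. On the higher side were 34 of the 39 members, with a median NES value of 1.16, while the median of all listed sets was 1.04. The lowest member was NABA_PROTEOGLYCANS, with an NES value of -1.27 in the authors' deposited table, short of the threshold. The highest of the inventory was NABA_ECM_AFFILIATED with 1.66 in the authors' deposited table, and the collagen names ran from 0.79 for REACTOME_CROSSLINKING_OF_COLLAGEN_FIBRILS to 1.57 for the OSWALD progenitor set. The matrix organisation sets ran from -0.96 for BIOCARTA_ECM_PATHWAY to 1.54 for KEGG_ECM_RECEPTOR_INTERACTION in the authors' deposited table. KEGG_FOCAL_ADHESION had 1.00, REACTOME_LAMININ_INTERACTIONS -0.77 and BIOCARTA_INTEGRIN_PATHWAY, the lowest integrin set, -0.74 in the authors' deposited table. None of these passed the threshold.

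Every myeloid count above rests on FDR q. At a deposited family-wise p (FWER p) below 0.05, 0 members were higher or lower in any of the myeloid comparisons, where 1.21% to 6.85% of all listed sets were higher and 0.335% to 2.16% lower, and the lowest FWER p among the members named there was 0.140 in the authors' deposited table, for NABA_SECRETED_FACTORS between the tumours in marrow.

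The members can be set side by side in marrow and spleen of the same kind of animal. With YUMM3.3 tumours, 22 of the 39 members were on the higher side in marrow and on the lower side in spleen, 14 were on the lower side in both, 2 on the higher side in both and 1 the other way round. As shares, these were 56.4%, 35.9%, 5.13% and 2.56% of the members, and 30.8%, 20.8%, 22.2% and 26.2% of the 3868 sets listed in all comparisons. NABA_SECRETED_FACTORS had an NES value of 1.88 in marrow and -1.38 in spleen, and NABA_CORE_MATRISOME 1.84 and -1.06, in the authors' deposited tables. NABA_PROTEOGLYCANS was higher in both tissues, at 1.74 in marrow and 1.70 in spleen in the authors' deposited tables. With B16F10 tumours, 19 members were on the lower side in marrow and the higher side in spleen, 10 on the lower side in both, 6 on the higher side in both and 4 the other way round. These were 48.7%, 25.6%, 15.4% and 10.3% of the members, and 24.2%, 19.6%, 50.6% and 5.64% of all those sets. KEGG_ECM_RECEPTOR_INTERACTION had an NES value of -2.00 in marrow and 1.19 in spleen in the authors' deposited tables. Over the 39 members, Pearson's r between marrow and spleen was 0.198 for YUMM3.3 and 0.108 for B16F10, while over the 3868 sets it was -0.169 and 0.557. Sets share genes, so these values only describe, and the difference between tissues was not tested.

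**Figure D3:**
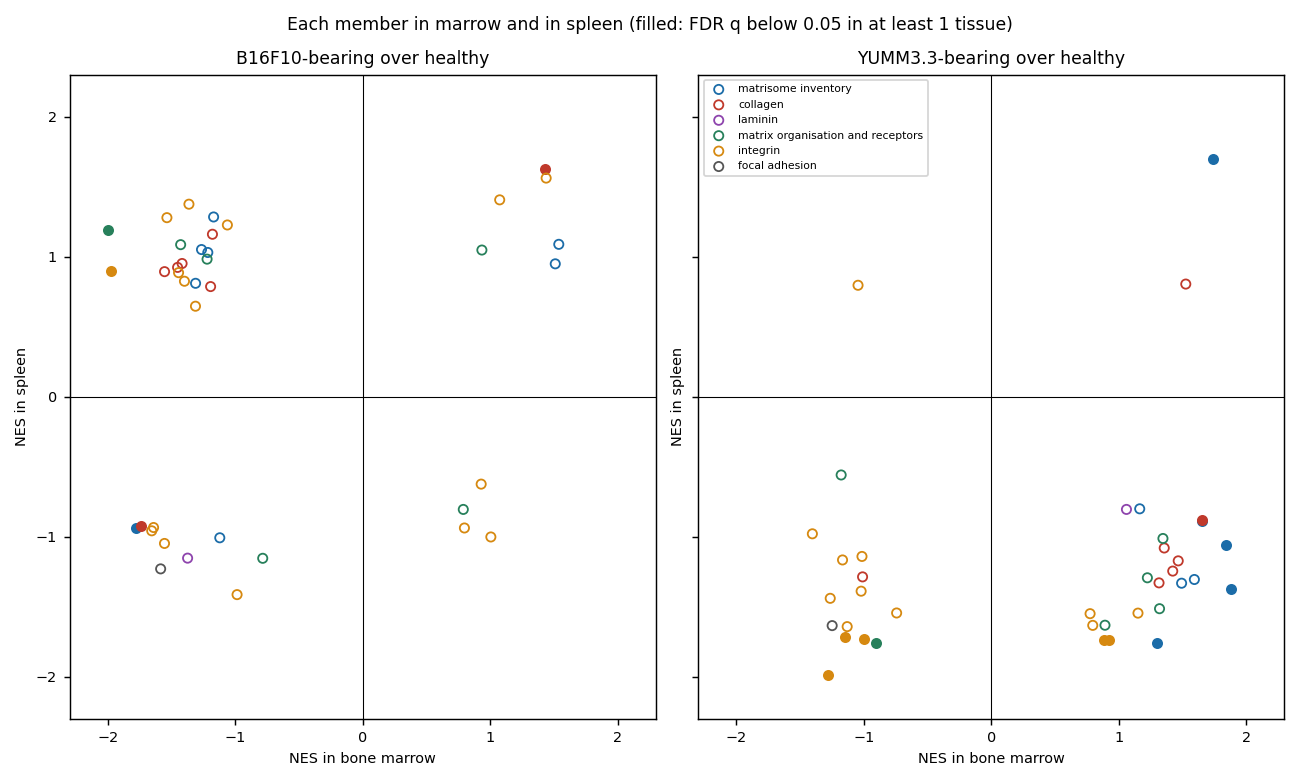
NES of each member in bone marrow (horizontal axis) and in spleen (vertical axis), for B16F10-bearing over healthy animals (left) and YUMM3.3-bearing over healthy animals (right). Colours give roles, and filled circles passed FDR q below 0.05 in at least 1 tissue. With YUMM3.3 tumours 36 members lie below 0 in spleen, and 22 of them lie above 0 in marrow.

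Between the cultured lines, most of the sets for collagen production, matrix contact and matrix breakdown were higher in YUMM3.3 than in B16F10. Of the 39 members, 29 were higher and 0 lower, where 11.8% of the 3871 listed sets were higher and 1.47% lower. The median NES was 1.94, beside 1.08 for all listed sets, and 38 members were on the higher side. NABA_CORE_MATRISOME, with an NES value of 2.32, had the largest NES of all 3871 sets in the authors' deposited table. PID_INTEGRIN1_PATHWAY, for the beta-1 integrins that bind collagen, laminin and fibronectin, was number 3 with 2.32 in the authors' deposited table. KEGG_ECM_RECEPTOR_INTERACTION was number 5 with 2.24, and REACTOME_INTEGRIN_CELL_SURFACE_INTERACTIONS number 7 with 2.24, in the authors' deposited table. REACTOME_EXTRACELLULAR_MATRIX_ORGANIZATION was number 9 with 2.22 in the authors' deposited table. Members made up 21 of the 100 sets with the largest NES. FDR q was listed as 0 for 15 members in the authors' deposited table, and how far below the last printed digit it lay is unknown.

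All 7 sets named for collagen were higher in YUMM3.3, with NES from 1.71 to 2.15. In the authors' deposited table, fibril assembly (REACTOME_ASSEMBLY_OF_COLLAGEN_FIBRILS_AND_OTHER_MULTIMERIC_STRUCTURES) stood at 2.15, REACTOME_COLLAGEN_FORMATION at 2.10, REACTOME_COLLAGEN_BIOSYNTHESIS_AND_MODIFYING_ENZYMES at 2.06 and REACTOME_CROSSLINKING_OF_COLLAGEN_FIBRILS at 1.84. Breakdown sets were higher as well, REACTOME_COLLAGEN_DEGRADATION with 1.98 and REACTOME_DEGRADATION_OF_THE_EXTRACELLULAR_MATRIX with 2.14 in the authors' deposited table. Of the inventory, 5 of 8 sets were higher, among them NABA_ECM_GLYCOPROTEINS at 2.15, NABA_SECRETED_FACTORS at 1.97 and NABA_BASEMENT_MEMBRANES at 1.94 in the authors' deposited table. NABA_COLLAGENS had 2.10 and REACTOME_COLLAGEN_CHAIN_TRIMERIZATION 2.08 in the authors' deposited table, and the OSWALD progenitor set, the lowest of the collagen names, 1.71. Apart from the OSWALD set, the sets named for collagen span the making, joining and cutting of fibres. REACTOME_LAMININ_INTERACTIONS had an NES value of 2.06 and REACTOME_ECM_PROTEOGLYCANS 1.96 in the authors' deposited table. KEGG_FOCAL_ADHESION reached 2.00 in the authors' deposited table. REACTOME_CELL_EXTRACELLULAR_MATRIX_INTERACTIONS had 1.63 in the authors' deposited table, and BIOCARTA_ECM_PATHWAY, with 1.27, was the only matrix organisation set short of the threshold.

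Of the 16 integrin sets, 10 were higher in YUMM3.3, with a median NES value of 1.65 over all 16. PID_AVB3_INTEGRIN_PATHWAY, for a vitronectin receptor of growing vessels and melanoma, had an NES value of 2.05 and PID_INTEGRIN3_PATHWAY, for the beta-3 integrins, 1.92 in the authors' deposited table. REACTOME_NON_INTEGRIN_MEMBRANE_ECM_INTERACTIONS stood at 2.09, PID_INTEGRIN2_PATHWAY at 1.86 and PID_INTEGRIN5_PATHWAY, for the beta-5 to beta-8 integrins, at 1.75 in the authors' deposited table. PID_INTEGRIN_A4B1_PATHWAY had 1.69, PID_INTEGRIN_CS_PATHWAY 1.61 and BIOCARTA_INTEGRIN_PATHWAY 1.61 in the authors' deposited table. The integrin sets short of the threshold included PID_INTEGRIN_A9B1_PATHWAY at 1.58, and PID_A6B1_A6B4_INTEGRIN_PATHWAY and the p130Cas set, both at 1.43, in the authors' deposited table. The remaining sets were named for signalling. REACTOME_INTEGRIN_SIGNALING had an NES value of 1.21, and the set linking integrins to MAPK through GRB2 and SOS had 1.36, in the authors' deposited table, neither past the threshold. ASTIER_INTEGRIN_SIGNALING was the only member on the lower side, with -1.07 in the authors' deposited table and an FDR q above the threshold. The inventory sets that missed the threshold were NABA_ECM_AFFILIATED at 1.51, NABA_PROTEOGLYCANS at 1.48 and NABA_ECM_REGULATORS at 1.21 in the authors' deposited table. At FWER p below 0.05, 21 members were higher between the lines, beside 2.04% of all listed sets.

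**Figure D4:**
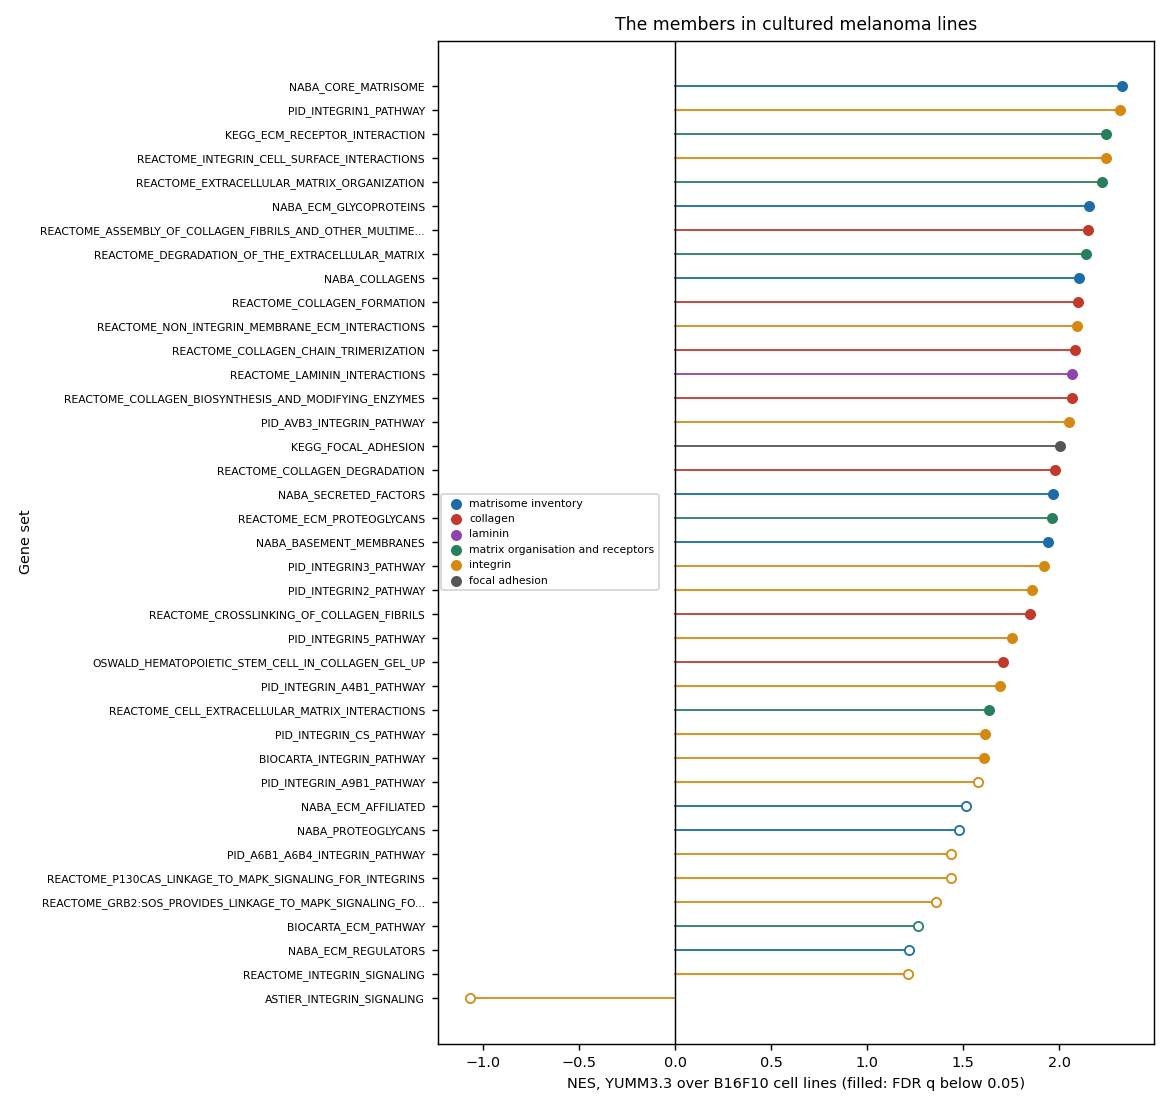
NES (horizontal axis) of each member for the YUMM3.3 over the B16F10 cell line, ordered by value and coloured by role, with filled circles at FDR q below 0.05. The filled circles run from 1.61 to 2.32, and ASTIER_INTEGRIN_SIGNALING, at -1.07, is the one open circle below 0.

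The 6 members past the threshold in none of the comparisons were NABA_ECM_REGULATORS, BIOCARTA_ECM_PATHWAY, PID_A6B1_A6B4_INTEGRIN_PATHWAY, REACTOME_INTEGRIN_SIGNALING, ASTIER_INTEGRIN_SIGNALING and the GRB2 and SOS set.

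The lines and the animals bearing them can be set side by side, since they share no library. Of the 39 members, 38 were listed higher in the YUMM3.3 line than in the B16F10 line. Of those, 23 were also on the higher side in YUMM3.3-bearing marrow when set against B16F10-bearing marrow, and 5 in YUMM3.3-bearing spleen. With 38 of the 39 higher in the line, these counts equal those of the marrow and spleen comparisons alone. On that side of the tumour comparisons lay 1876 of all 3883 listed sets in marrow and 1057 in spleen. Of the 3868 sets listed in all comparisons, 73.4% were listed higher in the YUMM3.3 line, 33.9% there and in YUMM3.3-bearing marrow, and 20.4% there and in YUMM3.3-bearing spleen. All 7 members that were lower in B16F10-bearing than in YUMM3.3-bearing marrow were higher in the YUMM3.3 line, where 74.4% of all the members were higher. These 7 hold the identical collagen sets and the core matrisome, so they are not 7 separate findings. Sets of any kind that were lower in B16F10-bearing than in YUMM3.3-bearing marrow and listed in all comparisons numbered 323. Of these 323, 21 were higher in the YUMM3.3 line, the 7 members among them. That is a smaller share than the 11.8% of all listed sets that were higher in the line. Whether tumour cells or their RNA were present in the myeloid preparations was not tested. Among the 4 melanoma and melanocyte sets by name, 1 was higher and 0 lower in B16F10-bearing against healthy marrow (NES from -1.10 to 2.03 in the authors' deposited table). In YUMM3.3-bearing against healthy marrow 0 were higher and 1 lower, and between the tumours in marrow 2 were higher and 0 lower. Of all listed sets, 20.1%, 9.68% and 8.09% were higher and 5.00%, 6.52% and 8.40% lower in these comparisons. In spleen against healthy, 2 were higher and 0 lower in B16F10-bearing animals (NES from -0.94 to 2.51 in the authors' deposited table). In YUMM3.3-bearing animals 2 were higher and 0 lower, and the other 2 were listed on the lower side (NES from -1.12 to 3.15 in the authors' deposited table). Of all listed sets, 16.6% and 15.6% were higher and 1.60% and 5.31% lower in these comparisons. The sets were picked by name alone, so they are a loose marker of melanoma cells. Between the tumours in spleen, and between the lines, 0 of the 4 changed. Of all listed sets, 9.63% and 11.8% were higher there, and 1.47% lower in each.

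The sets that passed the threshold did so with leading edges of different shape. The leading edge is the part of a set met in the ranked gene list before the score peaks. In YUMM3.3-bearing marrow against healthy marrow, the higher members held 55% to 62% of their genes in the leading edge, and the score peaked 33% to 39% of the way down the list. The median over all 376 sets called higher in that comparison was 39% of the genes within 11% of the list. Between the tumours in marrow, the members lower with B16F10 again peaked late, 30% to 39% of the way in from the YUMM3.3 end of the list, where the median of all 326 sets called lower was 13.5%. In YUMM3.3-bearing spleen, by contrast, the lower members held 20% to 40% of their genes within 2% to 15% of the list, with a median of 7%, beside 13% for all 206 lower sets. The cell lines had early peaks too, with a median of 35% of the genes of a higher member within 7% of the list. The medians over all 458 sets called higher between the lines were close, 37% of the genes and 10% of the list. For PID_INTEGRIN_A4B1_PATHWAY in YUMM3.3-bearing spleen, 20% of the genes lay in the outermost 2% of the list in the authors' deposited table. For NABA_CORE_MATRISOME in YUMM3.3-bearing marrow, 62% lay within 39% in the authors' deposited table.

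**Figure D5:**
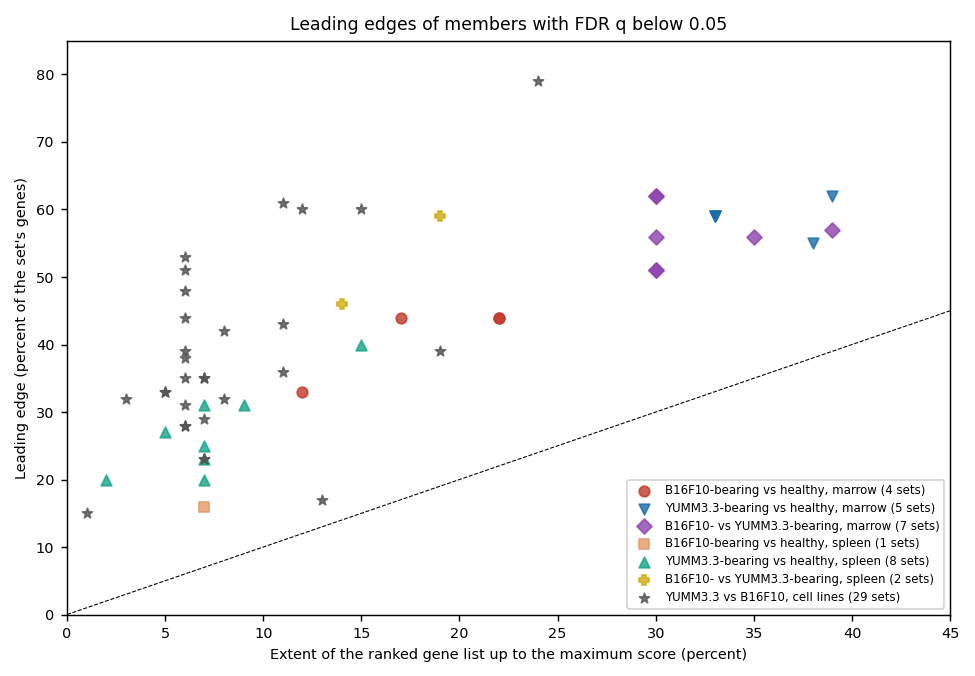
Leading edge (vertical axis, percent of the set's genes) against the extent of the ranked gene list up to the peak of the score (horizontal axis, percent), for members with FDR q below 0.05 in each comparison. On the dashed line a set would have no more genes in that extent than an even spread. Members called in the marrow comparisons with YUMM3.3 peak at 30% to 39% of the list, and the lower members in YUMM3.3-bearing spleen at 2% to 15%.

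The related sets for adhesion molecules, cadherins, syndecans, proteoglycan sugars, elastic fibres and cell junctions numbered 30. In B16F10-bearing against healthy marrow, 0 of them were higher and 3 lower, beside 20.1% and 5.00% of all listed sets. KEGG_CELL_ADHESION_MOLECULES_CAMS had an NES value of -2.04 (FDR q = 0.00225), REACTOME_SYNDECAN_INTERACTIONS -1.92 (FDR q = 0.00930) and REACTOME_NCAM1_INTERACTIONS -1.86 (FDR q = 0.0160) in the authors' deposited table. In YUMM3.3-bearing against healthy marrow 0 were higher and 2 lower, where 9.68% of all listed sets were higher and 6.52% lower, so the lower ones were near the background share. Both were named for E-cadherin, and PID_ECADHERIN_NASCENT_AJ_PATHWAY had an NES value of -2.14 in the authors' deposited table (FDR q = 0.00106). Between the tumours in marrow, 1 related set was higher with B16F10 and 1 lower, beside 8.09% and 8.40% of all listed sets. Spleen of B16F10-bearing animals had 0 related sets changed, against healthy or against YUMM3.3-bearing spleen. Of all listed sets, 16.6% were higher and 1.60% lower against healthy, and 9.63% and 1.47% against YUMM3.3-bearing spleen. Spleen of YUMM3.3-bearing animals had 6 lower and 0 higher against healthy, beside 5.31% and 15.6% of all listed sets. The lowest was PID_ECADHERIN_KERATINOCYTE_PATHWAY with an NES value of -2.01 in the authors' deposited table (FDR q = 0.00684). Between the lines 7 were higher in YUMM3.3 and 1 lower, beside 11.8% and 1.47% of all listed sets. REACTOME_SYNDECAN_INTERACTIONS had an NES value of 1.96 (FDR q = 0.000404) and REACTOME_ELASTIC_FIBRE_FORMATION 1.89 (FDR q = 0.00123) in the authors' deposited table, and KEGG_GLYCOSAMINOGLYCAN_DEGRADATION, the lysosomal breakdown of matrix sugars, had -1.72 (FDR q = 0.0468).

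Sets named for other cells that the preparations could hold went the way of the members in some comparisons and the other way in others. Their counts stand beside these shares of all listed sets. Against healthy marrow, 20.1% were higher and 5.00% lower in B16F10-bearing, and 9.68% and 6.52% in YUMM3.3-bearing. Against healthy spleen, these were 16.6% and 1.60%, and 15.6% and 5.31%. Between the tumours they were 8.09% and 8.40% in marrow and 9.63% and 1.47% in spleen, and between the lines 11.8% and 1.47%. Of the 11 platelet and megakaryocyte sets, 5 were lower and 1 higher in YUMM3.3-bearing against healthy spleen, with a median NES value of -1.66. In B16F10-bearing against YUMM3.3-bearing spleen, 4 of the 11 were higher and 0 lower. In marrow, 1 was higher and 2 lower in B16F10-bearing, and 2 higher and 1 lower in YUMM3.3-bearing, both against healthy. Between the tumours in marrow, 1 was higher and 2 lower with B16F10, while 4 of the 11 were listed on the higher side and 7 on the lower. The higher one was REACTOME_PLATELET_SENSITIZATION_BY_LDL at 1.87 (FDR q = 0.0124) in the authors' deposited table. In the same table, the lower ones were REACTOME_RUNX1_REGULATES_GENES_INVOLVED_IN_MEGAKARYOCYTE_DIFFERENTIATION_AND_PLATELET_FUNCTION at -2.64 (FDR q listed as 0) and GNATENKO_PLATELET_SIGNATURE at -1.96 (FDR q = 0.00325). In B16F10-bearing against healthy spleen 1 was higher and 0 lower, and between the lines 2 were higher and 0 lower. Platelets carry integrins and adhesion receptors, and the part of these cells in the values of the members was not tested. Of the 15 fibroblast, stroma and mesenchymal sets, 5 were higher and 0 lower in B16F10-bearing against healthy marrow, 3 and 0 in YUMM3.3-bearing against healthy marrow, and 1 and 2 in YUMM3.3-bearing against healthy spleen. Between the tumours they numbered 0 higher and 1 lower in marrow and 3 and 0 in spleen, where all 15 were on the higher side, and they numbered 2 and 0 in B16F10-bearing against healthy spleen and 8 and 0 between the lines. In B16F10-bearing marrow their median NES was 1.08 while that of the matrix members was -1.27. Many of the stromal names come from studies of epithelial-mesenchymal transition or of stimulated tumour cells, so they are a loose marker of stromal cells. Of the 6 endothelial sets, 1 was higher and 2 lower in YUMM3.3-bearing against healthy spleen. In B16F10-bearing animals 2 were higher and 0 lower against healthy marrow, against healthy spleen and against YUMM3.3-bearing spleen, where all 6 were on the higher side. The lines had 2 higher and 0 lower, and the other comparisons in marrow had 0 changed. The part of stromal and endothelial cells in the values of the members was not tested. Of the 11 T cell sets, 2 were higher and 2 lower in B16F10-bearing against healthy marrow, and 1 and 3 in YUMM3.3-bearing against healthy marrow. They numbered 2 higher and 2 lower in B16F10-bearing and 4 and 1 in YUMM3.3-bearing spleen, each against healthy. Between the tumours they numbered 3 higher and 1 lower in marrow and 1 and 0 in spleen, and between the lines 0 and 0. Of the 24 B cell sets, 5 were higher and 4 lower in B16F10-bearing against healthy marrow, and 3 and 3 in YUMM3.3-bearing against healthy marrow. They numbered 2 higher and 3 lower in B16F10-bearing and 3 and 1 in YUMM3.3-bearing spleen, each against healthy. Between the tumours they numbered 2 higher and 1 lower in marrow and 0 and 3 in spleen, and between the lines 0 and 0. The part of T and B cells in the values of the members was not tested.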

How the data were processed

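Labels of tissue, tumour and cell type gave the groups. The submitters' processing notes name the mm10 build, DESeq2 1.22.2, featureCounts 1.6.0, STAR 2.7.1a and FastQC 0.11.8; what each was used for, and the enrichment software, are not given in the sources used here. A total of 14 deposited enrichment reports, 2 for each of 7 comparisons, were read. Their columns, per the file headers, hold the size of a set, an enrichment score before (ES) and after normalisation (NES), a nominal p-value, an FDR q-value, a FWER p-value and the leading edge. The member sets and the lists of related and cell type sets were chosen with earlier results of these data known.

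A report was taken to hold the sets higher in the group its name puts first, and NES was signed to match. In the deposited files the sign was negative for the tumour group in the 4 comparisons with healthy animals and positive for the first-named group elsewhere. Whether the comparisons within a tissue fit together was checked over all 3883 sets: NES between the tumours correlated with the difference between the NES values against healthy (r 0.720 in marrow and 0.767 in spleen). A joint reversal of all comparisons of a tissue would leave these values unchanged, and the lines do not enter them, so the direction itself rests on the report names.

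The smallest nonzero nominal p among the members was 0.00121. Exchanging library labels allows no p under 0.05 for 3 against 3 libraries, 0.1 for 3 against 2 and 0.167 for 2 against 2. The deposited p and q therefore rest on something else, which is not known here. They were not read as a measure of the variation from animal to animal or culture to culture. Members were counted by direction at FDR q below 0.05 beside all listed sets, with no further test. Every member was counted, and those past the threshold in a comparison and the extremes of each role were named with values. The counting was tested on simulated data. Alternatives were FDR q below 0.25, FWER p below 0.05, sets of 25 to 200 genes, members without NABA names, names with TGFB or PLATELET kept and, added after seeing the data, the identical collagen sets counted once. Python 3.11.15, pandas 2.3.3 and NumPy 2.4.6 were used.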

Additional observations from a re-analysis of the deposited data

How the results depend on the processing

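At FDR q below 0.25 the members higher and lower numbered 4 and 19 in B16F10-bearing against healthy marrow (37.1% and 17.4% of all listed sets), 14 and 1 in YUMM3.3-bearing against healthy marrow (19.9% and 20.1%), 1 and 19 between the tumours in marrow (21.3% and 17.9%), and 4 and 1 in B16F10-bearing against healthy spleen (34.7% and 5.79%). At that threshold 23 were lower in YUMM3.3-bearing against healthy spleen (beside 969 of all 3883 listed sets), and 12 were higher in B16F10-bearing than in YUMM3.3-bearing spleen (28.4%). At FWER p below 0.05 each myeloid count was 0, in either direction, and between the cell lines 21 were higher. With sets of 25 to 200 genes, 3 of 28 members were higher in YUMM3.3-bearing against healthy marrow, and 1 was higher in B16F10-bearing than in YUMM3.3-bearing spleen. Without NABA sets, 1 was higher in YUMM3.3-bearing against healthy marrow (median NES 0.78), 0 in YUMM3.3-bearing against healthy spleen, and 4 were lower in B16F10-bearing than in YUMM3.3-bearing marrow, where the median NES turned to 0.78. Fewer sets were counted in both of these alternatives. Leaving out REACTOME_COLLAGEN_CHAIN_TRIMERIZATION, chosen after seeing the data, moved none of the 21 counts and medians past the limits used, and keeping names with TGFB or PLATELET changed none, because no such name matched. No paired analysis was possible because the files hold 1 value per set and comparison and none per library; for the same reason no library could be left out. The depth behind these scores is unknown here.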

Other observations

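PID_INTEGRIN2_PATHWAY, named for the beta-2 integrins of leukocytes, was higher in the cultured YUMM3.3 line than in the B16F10 line, with an NES of 1.86 (FDR q = 0.00229) in the authors' deposited table. Its leading edge was 15% of its 26 genes, within the outermost 1% of the ranked list, the smallest share and the shortest extent among the 29 members higher in that comparison. NABA_PROTEOGLYCANS was higher in YUMM3.3-bearing animals in both tissues, with 59% of its 32 genes within 33% of the list in marrow and 25% within 7% in spleen in the authors' deposited tables. Which genes these were cannot be read from the reports.

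OSWALD_HEMATOPOIETIC_STEM_CELL_IN_COLLAGEN_GEL_DN, the set kept apart, passed the threshold in none of the comparisons. In the authors' deposited tables its NES was -1.33 in B16F10-bearing and -1.48 in YUMM3.3-bearing marrow, each against healthy, and 1.40 between the tumours in marrow. Its values in spleen were 1.20, -1.16 and 1.24 in the same order, and 1.26 between the lines.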
